A study of Arabidopsis thaliana with 8 samples.

Results

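The genes described here responded to iron deficiency in opposite directions in the 2 genotypes of a root study of Arabidopsis thaliana. A gene was taken into the set when its mean log2 intensity was lower by at least 0.5 without iron than with iron in wild type (WT), and higher by at least 0.5 without iron than with iron in uri plants. The rule was applied to the means of 2 arrays, over probe sets that the array annotation assigns to exactly 1 gene. It kept 150 probe sets for 150 genes, of 21180 such probe sets. By comparison, 459 probe sets met the wild-type condition alone and 2237 met the uri condition alone. Another 124 had the mirror pattern, higher in wild type and lower in uri, while 144 were lower and 262 higher by this much in both genotypes.

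The study hybridised total RNA from roots to 8 single-colour Affymetrix arrays, 2 biological replicates in each of 4 groups. URI (AT3G19860) encodes a basic helix-loop-helix transcription factor that acts near the top of the iron-deficiency cascade, and the design asks how its mutation alters the response. All plants were raised for 14 days on B5 medium at reduced strength and then held for 3 days on a defined agar medium. The groups with iron, WT +Fe and uri +Fe, received 50 µM Fe(III)-EDTA, and the groups without, WT −Fe and uri −Fe, received the iron chelator ferrozine at 300 µM. The labels give the mutant genotype only as uri, with no allele or line, and name no tissue other than root.

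Roots carry the nuclear genes of photosynthesis but express them weakly, because root plastids are normally not chloroplasts, although roots in light can become green. The photosynthetic chain is among the largest consumers of iron in a plant, in the iron-sulphur clusters of photosystem I, in the cytochrome b6f complex and in ferredoxin. A second programme that recurs among the genes below is the response to darkness and sugar shortage. Plant cells short of carbon, sensed in part by the kinase SnRK1, switch on genes that break down branched-chain amino acids, store nitrogen in asparagine and recycle cell wall sugars, and several of these genes were first named DIN for dark-inducible.

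The values are on the log2 scale of the authors' normalised intensities, and an array measures each gene with its own probes, so levels are compared between groups and not between genes. Across probe sets, the 2 arrays of a group correlated with r from 0.9938 to 0.9978. Over the 150 genes the median difference between the 2 replicates was 0.15 in WT +Fe, 0.0996 in WT −Fe, 0.26 in uri +Fe and 0.12 in uri −Fe. The array numbers in the sample titles form 2 runs, one with all −Fe arrays and the other with all +Fe arrays, so the run of an array and the iron supply cannot be told apart. URI was measured at 8.73 and 8.78 in WT +Fe, 7.84 and 7.64 in uri +Fe, 8.64 and 8.60 in WT −Fe, and 8.52 and 8.62 on both arrays that bear the label uri −Fe. Its probe set thus separated the genotypes with iron (−1.02 ± 0.118 SE, limma adjusted p = 0.000752, n = 2 per group) but not without iron (−0.05 ± 0.118, limma adjusted p = 0.804). Every uri value without iron below takes those 2 arrays as labelled.

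On the arrays, the 150 genes formed a shared profile over the groups. Relative to the WT +Fe mean, their median was −0.68 and −0.69 on the WT −Fe arrays, 0.69 and 0.61 on those labelled uri −Fe, and −0.40 and −0.64 on the uri +Fe arrays. The median over all 22746 probe sets stayed between −0.03 and 0.03 on each array. The highest level was therefore typically that of uri without iron, and its mean lay above the WT +Fe mean for 141 of the 150 genes. In wild type the median difference without iron was −0.68, with a range from −1.70 to −0.50, and in uri it was 1.13, with a range from 0.50 to 4.1. The uri difference was the larger in size for 123 genes, and the median ratio of the 2 sizes was 1.62. The difference in uri reached 1 in 91 genes, that in wild type in 22, and both in 13.

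**Figure D1:**
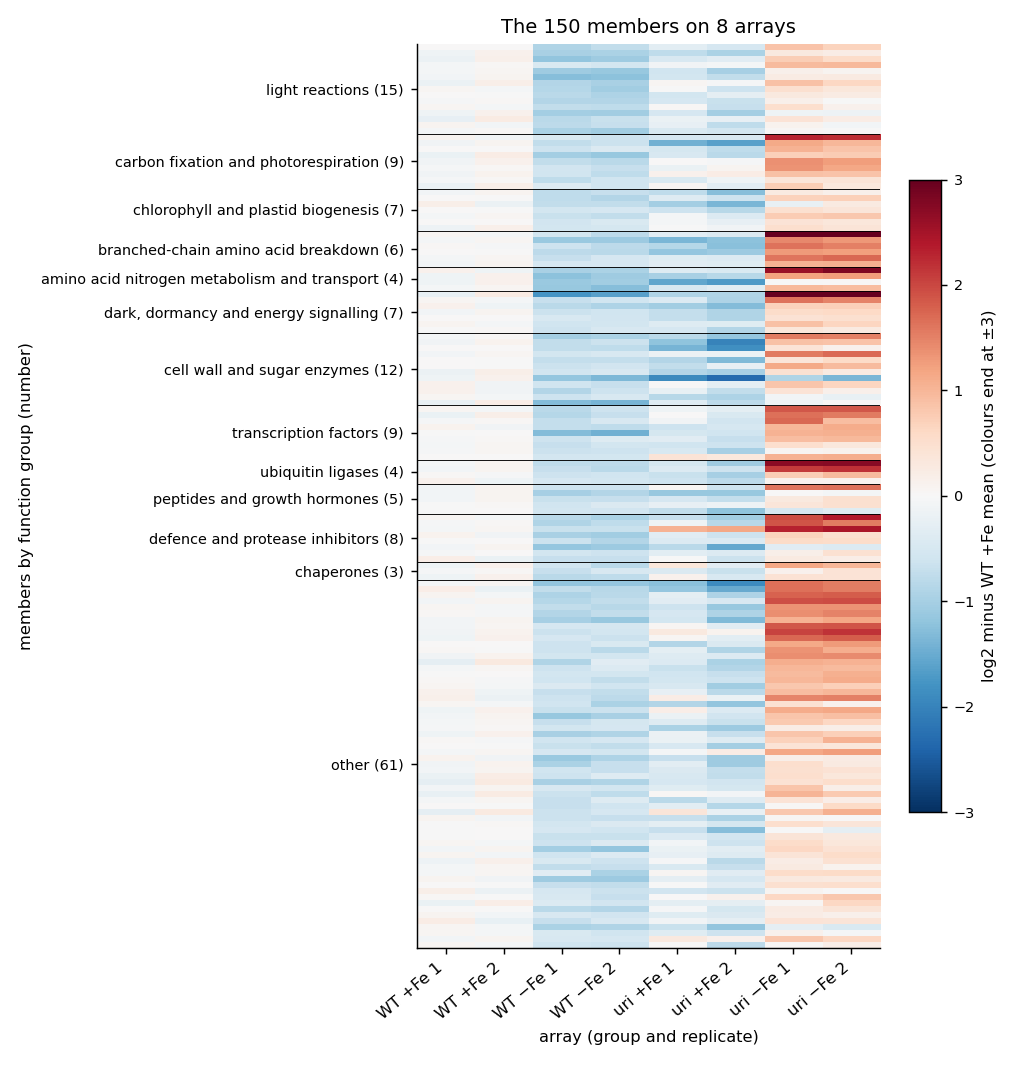
Each line is 1 of the 150 genes and each column 1 of the 8 arrays, with colour giving log2 intensity minus that gene's WT +Fe mean. Lines are grouped by function and, within a group, ordered by the uri difference. The WT −Fe columns are blue throughout, the uri −Fe columns are mostly red, and the uri +Fe columns are mostly pale blue, with 139 of 150 genes below wild type.

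These differences describe the rule that chose the genes and are not evidence for it. The iron response of wild type, the iron response of uri, their difference, and the genotype differences within one iron supply all come from the same 4 group means. In a limma fit to all arrays, with calls at a Benjamini-Hochberg adjusted p under 0.05, 128 of the 150 were called lower in wild type, where 2.14% of all probe sets were, and 0 were called higher, against 3.51%. The 128 became 50 and 41 without WT −Fe replicate 1 or 2, and 67 and 66 without WT +Fe replicate 1 or 2. In uri, 149 were called higher, against 15.1% of all probe sets, and the difference between the iron responses was called in all 150, against 9.60%. The 2 arrays of WT −Fe lay below the 2 of WT +Fe in all 150, an order that 28.9% of all probe sets show. The uri arrays were likewise separated in all 150, against 29.1%, and both orders together occur in 8.04% of probe sets. With iron, uri lay below wild type in 139 genes and was called lower in 68, against 1.78% of probe sets. The 68 became 29 and 36 without WT +Fe replicate 1 or 2, and 39 without uri +Fe replicate 2. Without iron it lay above in 150 and was called higher in 147, against 12.2%.

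**Figure D2:**
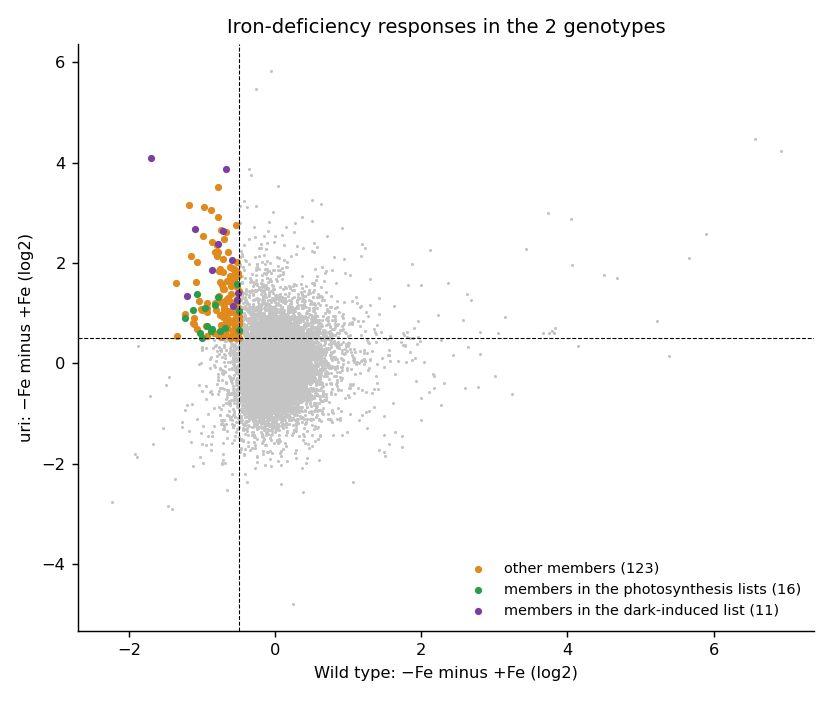
The difference between −Fe and +Fe in log2 units is plotted for wild type (horizontal) and uri (vertical) over the 21180 single-gene probe sets, with the 150 genes in colour and the thresholds of 0.5 dashed. Among the 150, SEN1 of the dark-induced list has the highest uri difference, 4.1; grey points outside the set, such as DIN11 at 5.46, lie higher.

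At the thresholds the set has no gap. Just inside the wild-type limit lay JAL22, a jacalin-type lectin (wild type −0.50, uri 0.515), CDSP32, a plastid thioredoxin (−0.501 and 0.844), and PETC (−0.502 and 1.043). Just outside it lay the inositol transporter INT4 (−0.497 and 0.731), the glutamate dehydrogenase GDH2 (−0.496 and 1.975) and the methionine lyase MGL (−0.494 and 2.627). On the uri limit LHCA3 (−1.001 and 0.503), AT5G51010 (−0.615 and 0.505) and HEMA1 (−0.537 and 0.511) were inside. LHCA1 (−0.656 and 0.496), MLP43 (−1.02 and 0.484) and AMI1 (−0.643 and 0.467) were outside. Of the 150 genes, 50 were within 0.1 of the wild-type limit and 16 within 0.1 of the uri limit.

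The light reactions of photosynthesis supplied 15 of the genes. They were the one large group in which the decrease in wild type was usually greater than the increase in uri, with medians of −0.93 and 0.74 and a median ratio of 0.781. PSBQ-2, a subunit of the oxygen-evolving complex of photosystem II, measured 7.44 and 7.77 in WT +Fe, 6.42 and 6.54 in WT −Fe, 7.14 and 7.27 in uri +Fe, and 8.36 and 8.17 in uri −Fe. The 4 groups did not overlap. Its wild-type difference was −1.13 ± 0.137 (SE, n = 2 per group) and its uri difference 1.06 ± 0.137, about a doubling each way (2.19-fold lower and 2.08-fold higher). PSAN, a subunit on the lumenal side of photosystem I, had 8.45 and 8.63 in WT +Fe, 7.27 and 7.32 in WT −Fe, 7.98 and 7.81 in uri +Fe, and 8.79 and 8.80 in uri −Fe. Here uri without iron lay only 0.26 above wild type with iron. PSAE-2, which helps dock ferredoxin on the stromal side of photosystem I, measured 7.11 and 7.37 in WT +Fe and 6.27 and 6.30 in WT −Fe. It measured 6.47 and 6.30 in uri +Fe, level with WT −Fe, and 7.53 and 7.46 in uri −Fe.

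The other members from photosystem I were PSAD-2, PSAG and PSAH-1, with wild-type differences of −0.93, −0.88 and −0.87 and uri differences of 0.74, 0.65 and 0.68. PSAD-2 with iron was at 6.52 and 6.86 in wild type and 6.74 and 6.65 in uri, so the genotypes overlapped there. For photosystem II the set also held PSBW, the assembly factor PSB27, the 5 kD protein gene AT1G51400 and the chloroplast gene ATCG00020, which encodes the D1 reaction centre protein. The D1 probe set was the only one from the plastid genome, at 9.18 and 9.01 in WT +Fe, 8.31 and 8.41 in WT −Fe, 8.86 and 8.34 in uri +Fe, and 9.21 and 9.02 in uri −Fe. One of its uri +Fe arrays lay inside the WT −Fe range. The antenna genes in the set were LHCB4.1, LHCB4.2 and LHCA3, with uri differences of 1.17, 0.61 and 0.50. LHCB4.1, which encodes a minor antenna protein of photosystem II, measured 9.52 and 9.51 in WT +Fe, 8.60 and 8.76 in WT −Fe, 9.19 and 9.01 in uri +Fe, and 10.37 and 10.17 in uri −Fe. The cytochrome b6f complex was represented by its PetM-type subunit AT2G26500 and by PETC, the Rieske iron-sulphur protein. PETC was at 8.57 and 8.66 in WT +Fe, 8.16 and 8.07 in WT −Fe, 8.51 and 8.56 in uri +Fe, and 9.57 and 9.59 in uri −Fe, so the genotypes were alike with iron to within 0.08.

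Another 9 genes act in carbon fixation and in photorespiration, the pathway that recycles the product of Rubisco's oxygenase reaction. In contrast to the light reactions, the median ratio of the uri to the wild-type difference was 1.69 here. CP12-2 and CP12-1 encode small proteins that hold phosphoribulokinase and glyceraldehyde-3-phosphate dehydrogenase in an inactive complex in darkness, and PRK and GAPA, which encode those 2 enzymes, were also among the 150. CP12-2 measured 6.50 and 6.93 in WT +Fe, 5.70 and 5.58 in WT −Fe, 6.22 and 5.90 in uri +Fe, and 7.42 and 7.46 in uri −Fe. GAPA measured 9.02 and 9.25 in WT +Fe, 8.39 and 8.31 in WT −Fe, 9.14 and 9.09 in uri +Fe, and 10.5 and 10.38 in uri −Fe. With iron GAPA was the same in both genotypes (−0.02), and without it the difference was 2.09. FBA2, a plastid aldolase, had differences of −0.69 in wild type and 0.70 in uri, and APE2, the triose phosphate translocator, had −0.68 and 0.67.

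Of the 3 photorespiratory genes, AGT and AT1G80380 had the 2 largest uri differences of this group, 2.75 and 2.61, while HPR, the peroxisomal hydroxypyruvate reductase, had 1.31, below CP12-1 at 1.59. AGT, the serine:glyoxylate aminotransferase of peroxisomes, was at 10.13 and 9.96 in WT +Fe, 9.59 and 9.42 in WT −Fe, 9.54 and 9.55 in uri +Fe, and 12.33 and 12.26 in uri −Fe. Wild type without iron and uri with iron coincided, and uri without iron stood 2.25 above wild type with iron. The glycerate kinase gene AT1G80380 was at 11.19 and 11.38 in WT +Fe, 10.55 and 10.65 in WT −Fe, 9.85 and 9.65 in uri +Fe, and 12.43 and 12.28 in uri −Fe. The wild-type difference of HPR was −0.64. Of the 7 genes of a photorespiration list, 5 were measured, and the 3 others were not of this pattern: the list's median was −0.09 in each genotype.

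A further 7 genes belong to chlorophyll synthesis or plastid biogenesis, among them HEMA1, the glutamyl-tRNA reductase that starts tetrapyrrole synthesis, CHLM, the magnesium protoporphyrin methyltransferase, and AT2G47450 (listed as CAO), a subunit of the chloroplast signal recognition particle that delivers antenna proteins. HEMA1 was at 8.08 and 8.40 in WT +Fe, 7.68 and 7.72 in WT −Fe, 8.22 and 8.13 in uri +Fe, and 8.74 and 8.63 in uri −Fe. The 2 genotypes overlapped with iron. CHLM was at 9.19 and 9.15 in WT +Fe, 8.61 and 8.66 in WT −Fe, 8.56 and 8.34 in uri +Fe, and 9.66 and 9.54 in uri −Fe. Among the 15 chlorophyll synthesis genes measured, 3 were called lower in wild type and 6 higher in uri, where 2.14% and 15.1% of all probe sets were, and the list's medians were −0.15 and 0.23.

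**Figure D3:**
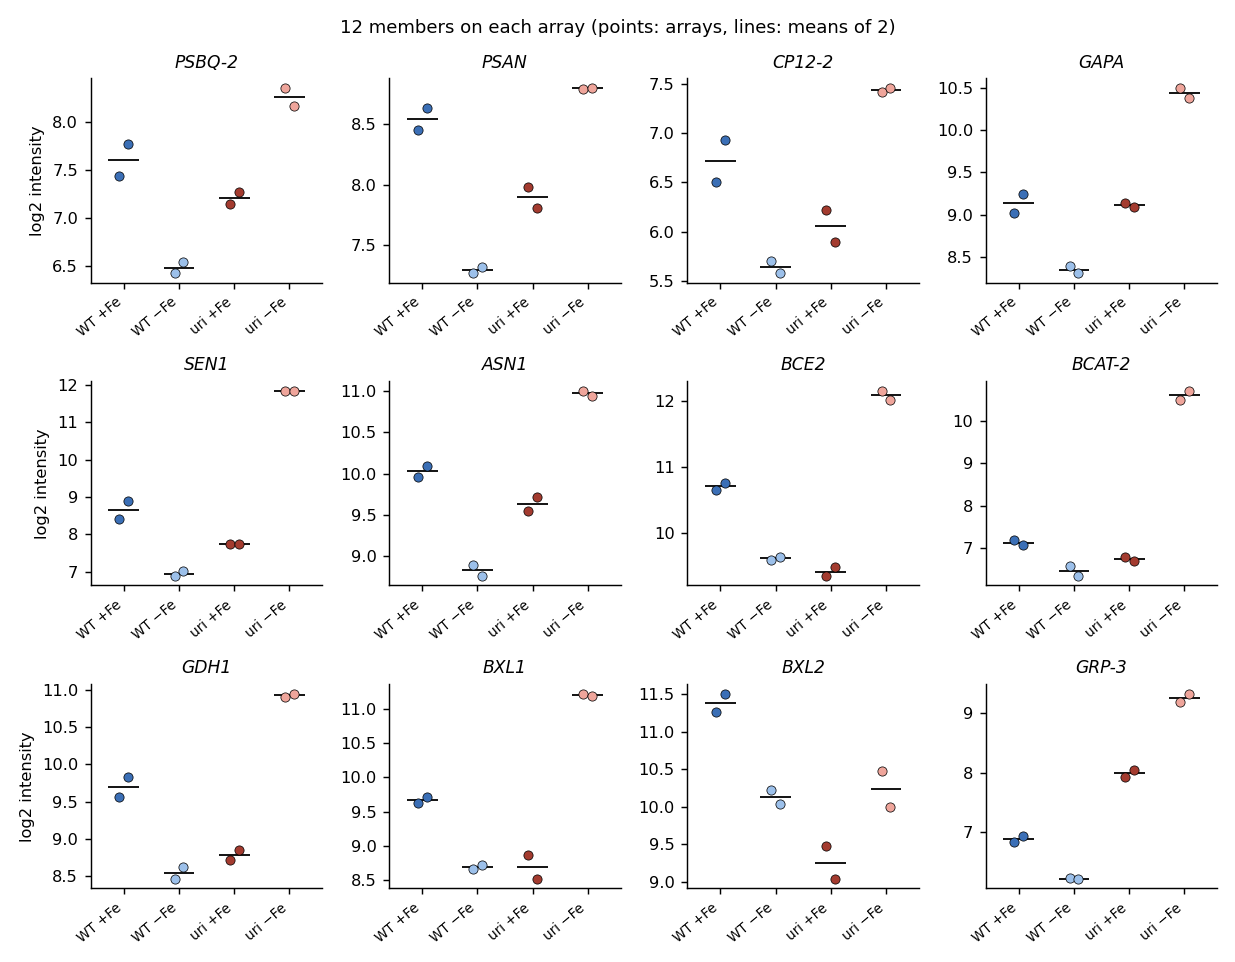
Log2 intensity of 12 of the genes is plotted for each group, with 1 point per array and a line at the mean of 2. PSBQ-2, PSAN and CP12-2 show the WT −Fe arrays lowest, BCE2 shows WT −Fe and uri +Fe both low, BCAT-2 and SEN1 stand far higher in uri −Fe than elsewhere, GRP-3 is higher in uri with iron, and BXL2 is highest in WT +Fe.

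Whole lists place these genes among their pathways. Of 66 genes of the antenna, both photosystems, electron transport and the Calvin cycle, 54 had a single-gene probe set and 16 of those were in the set. In wild type the median difference was −0.58, where the median of all probe sets was −0.03. There 28 of the 54 were called lower and 0 higher, against 2.14% and 3.51% of all probe sets. Without WT −Fe replicate 2 the count was 17. In uri 28 were called higher and 2 lower, with a median of 0.43, against −0.01 over all probe sets. The difference between the responses was called higher in 42 of 54, against 9.60% of all probe sets, and lower in 0. All 12 photosystem I genes measured were called lower in wild type and 6 were called higher in uri, against 2.14% and 15.1% of all probe sets. Because the 16 genes were chosen for this pattern, the other 38 were counted apart: 14 were called lower in wild type, 12 higher and 2 lower in uri, with medians of −0.47 and 0.27.

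Among the photosynthesis genes outside the set, some missed both limits, such as LHCB7 (−0.18 and 0.37), and PGK1 was called lower in uri (−0.47, limma adjusted p = 0.0121). PSAL, PSAE1, LHCA4 and GAPB missed a single limit. PSAL was lower in wild type without iron by a log2 difference of −1.01 ± 0.135 (limma adjusted p = 0.000646) and its uri difference of 0.33 ± 0.135 was not called (limma adjusted p = 0.0803). PSAE1, the paralogue of PSAE-2, was called in both (−0.85 and 0.46, limma adjusted p = 0.000627 and 0.00713). LHCA4 had −0.49 and 0.79, of which only the uri difference was called (limma adjusted p = 0.0693 and 0.00099). GAPB, the partner subunit of GAPA, had −0.29 in wild type, which was not called (limma adjusted p = 0.328), and 0.92 in uri (limma adjusted p = 0.000397). A list of 13 light-response genes held no gene of the set, which takes in 150 of 21180 single-gene probe sets. Of the 13, 4 were called higher in wild type without iron, against 3.51% of all probe sets. One was ELIP1, an early light-inducible protein, with 1.99 in wild type and −1.13 in uri (limma adjusted p = 0.000313 and 0.00311).

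The photosynthesis genes also served as markers of green tissue, and 14 markers of root hairs, endodermis, cortex, phloem and xylem served as markers of root cells. The summed linear intensity of the 54 green genes was 16282 to 17553 in WT +Fe, 11372 to 11511 in WT −Fe, 14352 to 15256 in uri +Fe and 21517 to 23452 in uri −Fe. Over the 38 outside the set it was 10805 to 11689, 8049 to 8270, 10283 to 10786 and 12785 to 13885. The root markers summed to 10583 to 11103, 11888 to 12254, 8337 to 9566 and 8240 to 8679 in the same order, and none of the 14 lay below the lower quartile of its group. Without iron in uri, 5 of the 14 root markers were called lower, 2 higher and 7 neither, with a median of −0.01. Of all 22746 probe sets, 4094 were called lower and 3434 higher in this comparison. The 5 lower markers were the root hair genes LRX1 (−1.09 ± 0.131, limma adjusted p = 5.21e-05), COBL9, RHD2 and EXPA18 and the cortex gene CO2. The root hair gene EXPA7 had −0.04 (limma adjusted p = 0.891). The 2 higher markers were SUC2 (0.69 ± 0.125, limma adjusted p = 0.00103) and MYB36 (0.58 ± 0.138, limma adjusted p = 0.00592). The mean genotype difference is uri minus wild type, averaged over both iron supplies. By it 8 of the 14 root markers were called lower and 0 higher, against 8.27% and 6.61% of all probe sets. Their median was −0.40. The green sums move with the set and the root sums move against it in part, and their part in the differences was not tested. In bulk roots fewer cells of a type and less RNA per cell cannot be told apart.

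**Figure D4:**
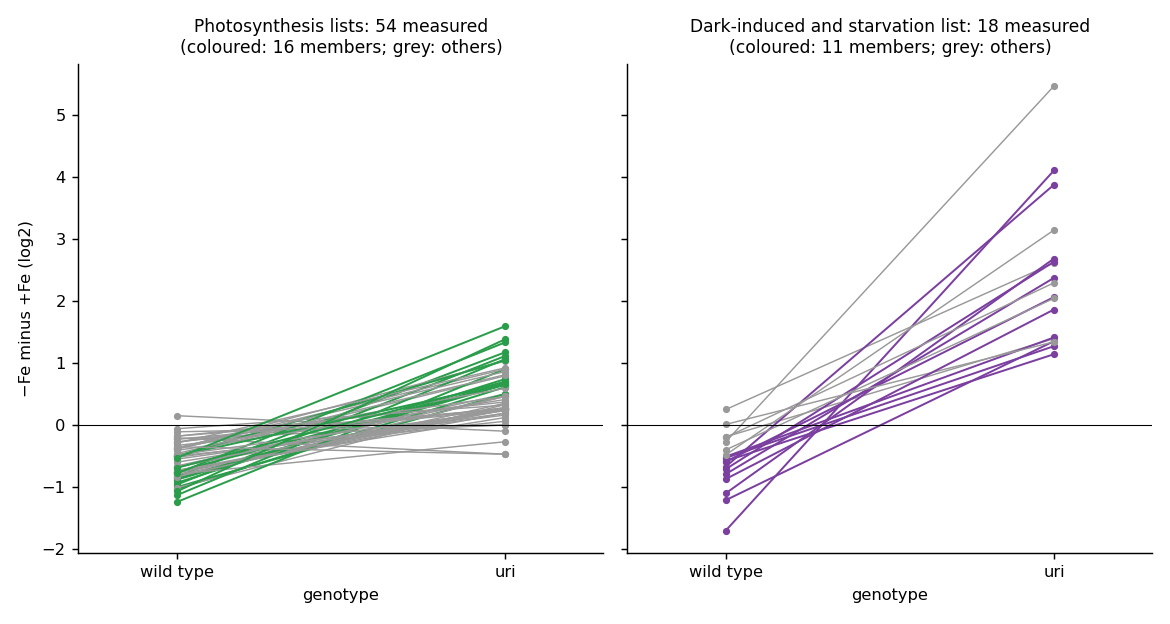
Lines join the log2 difference without against with iron in wild type to that in uri for each measured gene of the photosynthesis lists (54) and the dark-induced list (18), coloured for genes of the set (16 and 11). All 18 dark-induced genes lie above 0 in uri, and the steepest grey line is DIN11, which is near 0 in wild type and at 5.46 in uri.

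The dark-induced and starvation list held the largest uri differences of the set, SEN1 at 4.1 followed by BCAT-2 at 3.87. The next, ATL8 at 3.51, is not on that list. As a group, the 7 dark, dormancy and energy genes had medians of −0.61 in wild type and 1.39 in uri. The whole set had −0.68 and 1.13. SEN1 (DIN1), a marker of senescence and darkness, ranked first by the smaller of its 2 differences. It measured 8.41 and 8.88 in WT +Fe, 6.88 and 7.02 in WT −Fe, 7.73 and 7.74 in uri +Fe, and 11.85 and 11.83 in uri −Fe. The 4 groups were fully separated, with 3.24-fold less transcript without iron in wild type and 17.2-fold more in uri. DYL1, a dormancy-associated gene, moved within a narrower span, from 10.98 and 10.90 in WT −Fe and 10.76 and 10.57 in uri +Fe to 11.47 and 11.48 in WT +Fe and 11.90 and 11.96 in uri −Fe. AKINBETA1, a beta subunit of the SnRK1 kinase, had differences of −0.61 and 1.39. TPS11 and TPS10, class II trehalose phosphate synthase-like proteins, had −0.87 and 1.86, and −0.58 and 1.14. TPS11 was at 10.3 and 10.05 in WT +Fe, 9.37 and 9.25 in WT −Fe, 9.13 and 8.88 in uri +Fe, and 10.86 and 10.88 in uri −Fe.

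The set held 6 genes of successive steps of the breakdown of branched-chain amino acids in mitochondria, and their uri differences were the larger by a median ratio of 3.24. BCAT-2 encodes the aminotransferase of the first step, and it measured 7.19 and 7.07 in WT +Fe, 6.58 and 6.34 in WT −Fe, 6.79 and 6.70 in uri +Fe, and 10.51 and 10.72 in uri −Fe. The first 3 groups lay within 1 log2 unit, and uri without iron stood 14.6-fold above uri with iron. BCE2 (DIN3) and DIN4 encode subunits of the branched-chain keto acid dehydrogenase. BCE2 measured 10.65 and 10.76 in WT +Fe, 9.59 and 9.63 in WT −Fe, 9.34 and 9.48 in uri +Fe, and 12.16 and 12.02 in uri −Fe, and DIN4 had differences of −0.51 and 1.41. IVD, isovaleryl-CoA dehydrogenase, had −0.71 and 2.63. MCCA and MCCB, the 2 subunits of methylcrotonyl-CoA carboxylase of leucine breakdown, had −0.79 and 2.37, and −0.59 and 2.06.

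Nitrogen genes joined them. ASN1 (DIN6), the dark-induced asparagine synthetase, measured 9.96 and 10.09 in WT +Fe, 8.89 and 8.75 in WT −Fe, 9.54 and 9.72 in uri +Fe, and 11.01 and 10.95 in uri −Fe. GDH1, a glutamate dehydrogenase that feeds carbon from glutamate into respiration, measured 9.56 and 9.83 in WT +Fe, 8.46 and 8.62 in WT −Fe, 8.71 and 8.85 in uri +Fe, and 10.9 and 10.95 in uri −Fe. Both had fully separated groups in wild type and in uri, as did all 150 genes. With iron both were lower in uri than in wild type, a difference not called for ASN1 (−0.39, limma adjusted p = 0.116). UMAMIT33 and UMAMIT20 belong to a family of amino acid transporters. UMAMIT33 measured 8.36 and 8.11 in WT +Fe, 7.26 and 7.28 in WT −Fe, 7.86 and 7.78 in uri +Fe, and 10.83 and 11.04 in uri −Fe. UMAMIT20 had 9.35 and 9.59 in WT +Fe, 8.35 and 8.42 in WT −Fe, 7.91 and 7.76 in uri +Fe, and 9.46 and 9.49 in uri −Fe. For UMAMIT20, uri without iron only returned to the level of wild type with iron.

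Of 18 genes in the dark-induced and starvation list, all 18 were measured and 11 were in the set. In wild type 11 of 18 were called lower and 0 higher, against 2.14% and 3.51% of all probe sets, with a median of −0.56. That count fell to 7 and 5 without WT −Fe replicate 1 or 2 and to 7 without WT +Fe replicate 1. In uri all 18 were called higher, against 15.1%, with a median of 2.18. The difference between the responses was called higher in all 18, against 9.60%. The 7 genes outside the set were all called higher in uri, with a median of 2.29, and 0 of 7 was called in wild type. A gene that meets the uri limit is outside the set only if its wild-type decrease is under 0.5. The 0 of 7 thus follows largely from the split. DIN11, an oxygenase gene first found as dark-inducible, was at 3.95 and 3.92 in WT +Fe, 3.77 and 3.57 in WT −Fe, 4.40 and 4.24 in uri +Fe, and 10.0 and 9.56 in uri −Fe. Its wild-type difference of −0.27 ± 0.148 was not called (limma adjusted p = 0.378), and its uri difference was 5.46 ± 0.148 (limma adjusted p = 6.2e-10). Likewise SWEET12, a sucrose exporter, had −0.48 ± 0.141 in wild type (limma adjusted p = 0.0708) and 3.14 ± 0.141 in uri (limma adjusted p = 2.46e-08).

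Enzymes of the cell wall and of sugar turnover made up 12 genes. With iron all 12 were lower in uri than in wild type and 7 were called, beside 139 and 68 of the whole 150. Over all probe sets 1.78% were called lower. BXL1, a beta-xylosidase that is also induced by darkness, measured 9.63 and 9.72 in WT +Fe, 8.65 and 8.72 in WT −Fe, 8.86 and 8.51 in uri +Fe, and 11.23 and 11.19 in uri −Fe. Its close relative BXL2 measured 11.26 and 11.51 in WT +Fe, 10.23 and 10.04 in WT −Fe, 9.48 and 9.04 in uri +Fe, and 10.48 and 10.0 in uri −Fe. BXL2 in uri without iron overlapped wild type without iron and stayed below wild type with iron, whereas BXL1 exceeded every other group. The beta-galactosidases BGAL2 and BGAL4 had differences of −0.75 and 1.89, and −0.53 and 1.29. UGE3, a UDP-glucose epimerase, had −0.70 and 2.47, but its uri +Fe arrays lay far apart, at 6.57 and 5.78. MIOX4, a myo-inositol oxygenase, had the reverse balance, −1.35 in wild type and 0.54 in uri, with 6.36 and 6.82 in WT +Fe and 5.29 and 5.19 in WT −Fe.

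Transcription factors made up 9 of the genes. The MYB-type gene AT4G37180 ranked second in the set, at 8.10 and 8.11 in WT +Fe, 6.81 and 6.68 in WT −Fe, 7.58 and 7.52 in uri +Fe, and 9.15 and 9.18 in uri −Fe. Replicates differed by no more than 0.13 in any group. WRKY75 and WRKY45, which are known from phosphate starvation and senescence, had differences of −0.77 and 1.84, and −0.71 and 2.08. WRKY45 was at 7.53 and 7.39 in WT +Fe, 6.66 and 6.84 in WT −Fe, 7.33 and 7.16 in uri +Fe, and 9.33 and 9.33 in uri −Fe. Another WRKY gene, WRKY26, had −0.50 and 1.45. The ethylene response factor gene EBP had −0.75 and 1.62, the DELLA repressor gene RGL3 −0.62 and 1.02, and NAC047 −0.55 and 0.71. The zinc finger gene AT3G53820 and the gibberellin oxidase gene GA20OX2 were the only 2 genes of the set with a group mean below the lower quartile of that group's probe sets, and the 2 uri −Fe arrays of AT3G53820 were 0.789 apart.

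Among 4 genes of ubiquitin ligases or their substrate adaptors was ATL8, a RING protein, at 8.14 and 8.29 in WT +Fe, 7.45 and 7.42 in WT −Fe, 7.69 and 7.14 in uri +Fe, and 10.91 and 10.95 in uri −Fe. Its uri difference was 11.4-fold. Among peptide and hormone genes, PSK4, a phytosulfokine precursor, had −0.62 and 1.92, the gibberellin-regulated gene AT5G14920 (GASA14) −0.94 and 1.11, and CLE2, a signalling peptide precursor, −0.55 and 0.54. CLE2 was at 9.03 and 9.07 in WT +Fe, 8.51 and 8.48 in WT −Fe, 8.31 and 7.85 in uri +Fe, and 8.55 and 8.69 in uri −Fe, so that wild type with iron was the highest group. Defence genes numbered 8, among them the basic chitinase HCHIB (−0.76 and 0.97) and 3 genes annotated as protease inhibitors. AT1G72060, one of these, measured 6.03 and 5.93 in WT +Fe, 5.18 and 5.03 in WT −Fe, 5.29 and 4.93 in uri +Fe, and 7.94 and 8.37 in uri −Fe. The other 2, the putative trypsin inhibitors AT2G43530 and AT2G43535, are neighbours on chromosome 2 in the RefSeq table of assembly TAIR10.1.

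One contrast was left to test, the mean genotype difference: uri minus wild type, averaged over both iron supplies. With equal variance on all arrays its errors are uncorrelated with those of both iron responses, and each genotype has the same share of +Fe and −Fe arrays. The uri +Fe arrays were the more variable, so the equality holds only roughly, and a gene that is high in uri without iron raises both this contrast and the uri response. The count below is therefore no separate evidence for the pattern. Of the 150 genes, 93 were called higher in uri and 2 lower, where 6.61% and 8.27% of all 22746 probe sets were. The mean difference was above 0 in 133 genes, with a median of 0.46 against 0.01 over all probe sets.

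GRP-3, a glycine-rich cell wall protein, had the largest mean genotype difference, 2.07 ± 0.0824 (SE, limma adjusted p = 2.73e-08). It measured 6.83 and 6.93 in WT +Fe, 6.22 and 6.21 in WT −Fe, 7.93 and 8.04 in uri +Fe, and 9.18 and 9.33 in uri −Fe, and was the one gene of the set called higher in uri with iron, a count to be read beside 1.34% of all probe sets. SEN1 followed with 1.99 ± 0.103 (limma adjusted p = 1.62e-07) and BCAT-2 with 1.89 ± 0.0918 (limma adjusted p = 9.86e-08). UMAMIT33 had 1.63, the COBRA-like gene COBL2 1.44, and ATL8 1.35. The 2 genes called lower were BXL2, at −1.01 ± 0.128 (limma adjusted p = 0.000218), and CLE2, at −0.42 ± 0.103 (limma adjusted p = 0.0142). The CLE2 call was lost in 3 fits that each left out 1 array, WT −Fe replicate 1, WT −Fe replicate 2 or uri −Fe replicate 1, with limma adjusted p of 0.0597, 0.0509 and 0.0613.

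Counts by function group are given as a description, without a test between groups, beside the 93 of 150 (62.0%) of the whole set and the 6.61% of all probe sets. By this mean all 6 genes of branched-chain amino acid breakdown were called higher in uri, from 0.46 for MCCA to 1.89 for BCAT-2. With iron alone, however, these 6 lay below wild type in uri and 3 were called lower, against 1.78% of all probe sets. In carbon fixation and photorespiration 8 of 9 genes were called higher by the mean. In the light reactions 9 of 15 were called higher, with a median of 0.37, from PSAD-2 at 0.84 ± 0.10 (limma adjusted p = 0.000139) to LHCB4.2 at 0.06 ± 0.113 (limma adjusted p = 0.793). Among the 12 cell wall and sugar genes 4 were called higher and 1 lower, with a median of 0.16. For UGE3 the 2 genotype differences nearly cancelled, at −0.02 ± 0.141 (limma adjusted p = 0.945, 95% interval from −0.33 to 0.28). Of the 7 dark, dormancy and energy genes 3 were called higher, SEN1 (1.99), SNRK2-8 (0.76) and TPS10 (0.47), and among the others TPS11, AKINBETA1 and DYL1 had 0.20, 0.19 and 0.09 (limma adjusted p = 0.209, 0.178 and 0.548). With iron alone all 7 lay below wild type in uri and 6 were called lower, against 1.78% of all probe sets. Over the whole dark-induced list 13 of 18 were called higher by the mean. With iron alone 9 of these 18 were called lower in uri and 1 higher, against 1.78% and 1.34% of all probe sets.

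**Figure D5:**
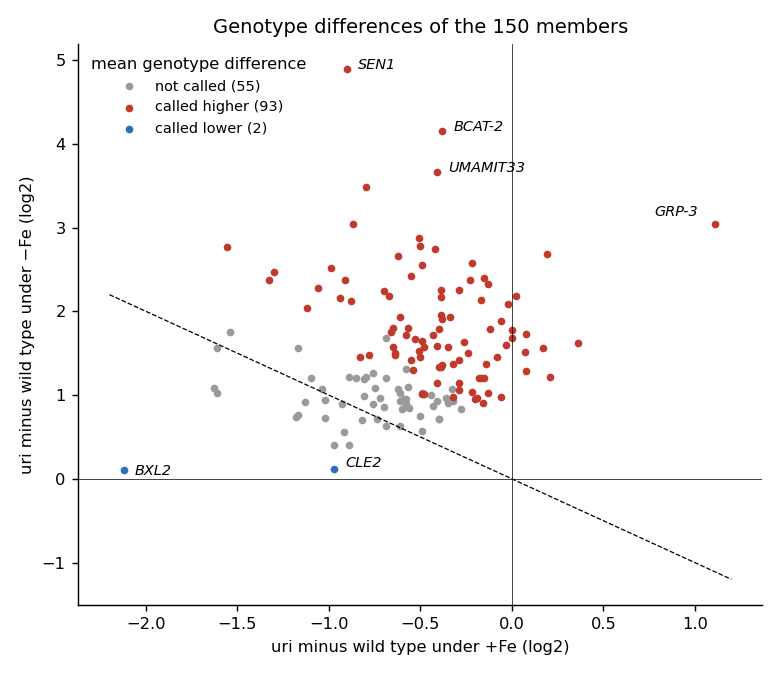
The log2 difference between uri and wild type with iron (horizontal) and without iron (vertical) is plotted for the 150 genes, with the mean genotype difference called higher in red (93), called lower in blue (2) and not called in grey (55). On the dashed line the 2 differences cancel; GRP-3 stands alone at the right, SEN1 and BCAT-2 at the top, and BXL2 at the far left.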

How the data were processed

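The deposited values are probe-set intensities on a linear scale, made by the authors with RMA, per the submitters' processing notes, with the version not given in the sources used here. Log2 was taken before any step. The authors' workbook holds these values too, to within 5e-06 units. Gene annotation came from it through the probe-set names, since 44 of its lines were shifted. Removing 64 controls from 22810 probe sets left 22746 for the tests.

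All 8 arrays entered 1 limma 3.58.1 fit (lmFit and eBayes, R 4.3.3) with 4 group means, 4 residual degrees of freedom, a prior of 8.32 and a prior SD of 0.132. Tests were two-sided, adjusted by Benjamini-Hochberg over all 22746 probe sets for each contrast and called at 0.05. SE is the moderated standard error. The fit was tested on simulated data. The number of arrays limits the precision.

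The members and the gene lists were chosen with earlier results of these data known, and function groups after the members' values were seen. Genes were named by rule: the 24 with the largest smaller difference, up to 4 members of each list, 3 on each side of a threshold, up to 6 called members with the largest mean genotype difference each way, the 3 highest and 3 lowest by mean level, URI, and up to 4 non-members of a list with 3 or more members, by largest interaction. Those named beyond it (such as ELIP1, LHCB7, PGK1, the root markers, UGE3 and WRKY45) were chosen after their values were seen. Names follow the RefSeq gene table (assembly TAIR10.1), in which 149 of 150 members were found. Alternatives were 2 normalizations, a filter at mean log2 6, the workbook table, trended robust moderation, a replicate block, other thresholds and leaving out each array.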

Additional observations from a re-analysis of the deposited data

Results flagged for a closer look

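The iron response differed between wild type and uri in all 150 members, by the limma test of the difference between the responses itself. The rule chose genes with responses of opposite sign, so this count follows from the choice, and 9.60% of all probe sets had a difference called in the same direction. With 2 arrays in each group, no single array was tested for standing apart from its group.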

How the results depend on the processing

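Without 1 array at a time the rule kept 132 to 188 genes, sharing 125 to 150 with the 150, and 91 of the 150 and all of the 24 top-ranked genes were kept in each of these 8 selections. A threshold of 0.4 gave 265 genes and a threshold of 1 gave 13. Fits that leave a group with 1 array assume that it varies like the other groups. The members called lower in wild type numbered 41 to 143 without 1 array, against 128: 50 and 41 without WT −Fe replicate 1 or 2, and 67 and 66 without WT +Fe replicate 1 or 2. Those called lower in uri with iron numbered 29 to 90, against 68: 29 and 36 without WT +Fe replicate 1 or 2, and 39 without uri +Fe replicate 2. Over all probe sets, leaving out 1 array gave 435 to 1729 calls in wild type (1285 with all arrays), 2849 to 4937 for the interaction (4637), 3609 to 6833 for uri against wild type without iron (6057) and 2096 to 4063 for the mean genotype difference (3383). With iron it gave 179 to 1379 (709), and there the filter at log2 6 gave 1086 and trended robust moderation 1113. The causes were not tested. Members with the mean genotype difference called higher numbered 79 to 107, against 93. In wild type the photosynthesis genes called lower numbered 17 to 33 over all alternatives, against 28, the lowest without WT −Fe replicate 2. Those of the dark-induced list numbered 5 to 12, against 11, with 7 and 5 without WT −Fe replicate 1 or 2 and 7 without WT +Fe replicate 1.

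Of 51 named members, 40 were called by the mean genotype difference in the main fit. Among 711 alternative values for the 51, 682 kept the main result, whether called or not called. A call was lost in 22 values (in 7 genes) and gained in 7 values (in 3 genes), and none changed sign with a call. The 7 genes were LHCA3, AT3G23080, AT4G35750, CLE2, PSAH-1, CP12-1 and GA20OX2. The replicate numbers did not mark pairs: deviations of same-numbered arrays correlated from −0.223 to 0.155. With the replicate number as a block, 121 members were called lower in wild type, 149 higher in uri, 61 lower in uri with iron and 90 higher by the mean genotype difference, and among named members the block ended the call of LHCA3 alone (limma adjusted p = 0.0609).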

Other observations

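Another 61 of the 150 genes fell in none of the function groups. The organic acid transporter TDT, which moves malate across the vacuolar membrane, measured 8.46 and 8.63 in WT +Fe, 7.68 and 7.79 in WT −Fe, 8.19 and 8.05 in uri +Fe, and 10.47 and 10.49 in uri −Fe. Its mean genotype difference was 1.16 ± 0.0842 (limma adjusted p = 2.45e-06). Single enzymes of redox and one-carbon metabolism were among them, with differences of −0.52 in wild type and 1.13 in uri for the formate dehydrogenase FDH, and −0.51 and 1.75 for the plastid glutathione peroxidase GPX1. HIPP22, a heavy metal-associated isoprenylated protein, was at 8.26 and 8.05 in WT +Fe, 7.04 and 7.23 in WT −Fe, 7.45 and 7.09 in uri +Fe, and 8.32 and 8.39 in uri −Fe. MHX, a vacuolar exchanger of magnesium and zinc, had −0.58 and 0.64. No gene of the lists of iron regulators, iron uptake or iron storage belonged to the 150, out of 21180 single-gene probe sets. In wild type 5 of 6 regulator and 6 of 8 uptake genes were called higher, against 3.51% of all probe sets. In uri 4 of the 6 and 4 of the 8 were called higher, against 15.1%, and 2 uptake genes were called lower. Of 9 storage genes, 7 were called lower in wild type, against 2.14% of all probe sets. In uri 7 of the 9 were called lower and 1 higher, where 4094 of 22746 probe sets were called lower and 3434 higher. The rule excludes genes that are higher in wild type or lower in uri without iron, so the absence of the genes called so follows from it. A gene such as URI, at −0.13 in wild type and 0.83 in uri, was not called in wild type and missed the wild-type limit. AT1G19530, at rank 4 of the 150 by the smaller of its differences, was at 10.57 and 10.67 in WT +Fe, 9.43 and 9.46 in WT −Fe, 9.37 and 8.74 in uri +Fe, and 12.28 and 12.16 in uri −Fe.

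By the RefSeq table, 3 pairs of the genes are immediate neighbours: AT1G19530 with AT1G19540, AT2G34500 (CYP710A1) with AT2G34510, and AT2G43530 with AT2G43535. In the first pair the uri differences were 3.16 and 1.34. Over the 5 nuclear chromosomes the set held 47, 23, 32, 19 and 26 protein-coding genes, between 0.554% and 0.894% of those measured on a chromosome. The gene ABCG30 had another single-gene probe set outside the set, with −0.24 in wild type and −0.10 in uri against −0.53 and 0.53 for the one inside. For ABCG30 the 2 probe sets therefore disagreed.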
